A study of Rattus norvegicus with 22 samples.

Results

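Slc26a7, Slc6a20, Slc6a13, Slc13a3, Slc13a4, Slc22a6, Slc22a8, Slc47a1, Dpp4 and Tnnt2 are 10 rat genes, 8 membrane transporters, a surface peptidase and a troponin, that are grouped here as transporters and surface genes of the leptomeninges. They are 10 of the 32883 genes in the count table, of which 24689 had a count in any library, and each was found once by its symbol. The members were chosen by their difference between gonadectomized and intact males in these same libraries, where Slc26a7, Tnnt2 and Dpp4 were among the genes with the largest log2 fold changes. Values of that contrast, and of the contrasts that share its libraries, are therefore descriptions, and nothing is read from the test calls printed for them.

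RNA was sequenced from the ventral part of cervical cord segments C3-C6 of 22 young-adult Sprague-Dawley rats, 1 library per rat. There were 5 intact males, 5 males after bilateral removal of the testes (GDX), 6 intact females and 6 females after bilateral removal of the ovaries (OVX). Tissue was taken a fortnight after surgery, after perfusion with saline. The females were virgin, the intact rats were age-matched, and no sham surgery is described for them. Total counts per library ranged from 12371756 to 17571887, and the group medians were 14640726 and 14766802.5 for intact and OVX females, and 14196615 and 15645521 for intact and GDX males. Levels are given as CPM, the count of a gene relative to the scaled size of its library. They are not scaled for gene length, so they compare rats and not genes. The gene with the highest CPM of a list is named for its share of the counts, not as the most expressed.

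The libraries fall into a short and a long class by the average input fragment size the study lists. All 11 libraries of gonadectomized rats are short, as are those of intact males 2 and 5 and of intact females 1 and 4, while the other 7 intact libraries are long. Rats carry the numbers of their sample labels. The study's list also counts the males of each group in order, so intact male 5 here is its Intact Male 4 and GDX male 5 its GDX Male 4. Library class and gonadectomy are therefore partly confounded, and values within the short class alone are given for the main results. GDX males and OVX females are all in the short class.

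The leptomeninges are the arachnoid and pia, thin sheets of fibroblast-like and barrier cells that enclose the cord and bathe in cerebrospinal fluid. Their cells carry uptake and efflux carriers that move amino acids, sulfate, dicarboxylates and organic ions between that fluid, the blood and the nervous tissue. Many of the same carriers are known from the kidney tubule and the choroid plexus. Pia stays on dissected cord tissue, so a bulk sample of cord holds some leptomeningeal RNA.

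Promoters are shown for the members whose RefSeq start could be placed at the outer end of the gene, because the members moved together from rat to rat. RefSeq promoters matched 6 of the 10 members, with 7 windows. The 4 windows shown are the 250 bases before the start in build GRCr8, at chr3:174623894-174624143 on the minus strand for Slc13a3, chr4:64955987-64956236 on the minus strand for Slc13a4, chr3:67452423-67452672 on the minus strand for Dpp4 and chr13:49818873-49819122 on the plus strand for Tnnt2. Capitals mark the GC box.
Slc13a3: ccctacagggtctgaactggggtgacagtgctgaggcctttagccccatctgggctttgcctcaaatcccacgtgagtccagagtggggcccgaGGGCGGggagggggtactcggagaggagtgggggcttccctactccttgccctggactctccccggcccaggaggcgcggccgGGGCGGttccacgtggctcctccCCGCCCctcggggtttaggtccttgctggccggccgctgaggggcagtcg
Slc13a4: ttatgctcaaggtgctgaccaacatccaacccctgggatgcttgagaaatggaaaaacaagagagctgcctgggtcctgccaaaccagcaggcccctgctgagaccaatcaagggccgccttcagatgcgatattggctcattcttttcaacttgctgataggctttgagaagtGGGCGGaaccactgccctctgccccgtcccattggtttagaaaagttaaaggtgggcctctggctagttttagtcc
Dpp4: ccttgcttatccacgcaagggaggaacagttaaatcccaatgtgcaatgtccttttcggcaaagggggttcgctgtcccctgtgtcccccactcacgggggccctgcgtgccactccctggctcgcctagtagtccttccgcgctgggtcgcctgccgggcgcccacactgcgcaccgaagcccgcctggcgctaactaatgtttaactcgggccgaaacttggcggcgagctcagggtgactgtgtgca
Tnnt2: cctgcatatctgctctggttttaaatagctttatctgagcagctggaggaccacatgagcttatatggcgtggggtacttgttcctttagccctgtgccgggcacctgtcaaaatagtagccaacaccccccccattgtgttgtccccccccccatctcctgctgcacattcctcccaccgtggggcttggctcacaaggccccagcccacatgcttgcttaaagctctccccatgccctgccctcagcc
Motifs were searched on both strands in all 7 windows, and no motif contains another. The GC box GGGCGG was found in 2 members, Slc13a3 and Slc13a4, and in 30.5% of the 33469 promoters of the table. The T-box half-site GGTGTGA was found in 1 member, in a second Tnnt2 window that is not shown, and in 3.22% of all promoters. No member's window held the androgen and glucocorticoid receptor half-site AGAACA, the nuclear receptor half-site AGGTCA, the forkhead core GTAAACA or the TATA box core TATAAA, which 17.5%, 14.1%, 3.21% and 12.9% of all promoters hold. The windows are short, and a missing match says only that these letters are absent from them.

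The label was checked against 21 other leptomeningeal genes, among them Foxc1, Tbx18, Zic1, Aldh1a2, Dcn and Ptgds. After each value was taken as its deviation from the group mean, 8 members followed the mean of those genes over the 22 rats with Pearson r of at least 0.742, the highest being 0.952 for Slc13a4. Slc13a3 followed it less closely, with r of 0.64, and Slc22a8 least of all. Slc13a3 is also known from astrocytes, but its r with a marker list of those cells, 0.24, was lower still. Slc22a8 is also known from brain endothelium, and its r with an endothelial list, 0.399, was the highest among the members. That value was only slightly below its r with the leptomeningeal genes, so the correlations do not separate these labels for Slc22a8. The label therefore fits 8 members better than these 2. Rats, library and depth are shared by all genes in these correlations, so they are descriptions.

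Across the 4 groups, intact males had the lowest mean for all 10 members, and the other 3 groups lay close together. The gap from intact males to the next group was 1.27 (Slc47a1) to 3.35 (Slc26a7) times the larger of the 2 SDs. Among GDX males, intact females and OVX females, neighbours in the order of means were 0 to 0.701 SD apart, which is within the spread between rats. The counts behind these levels were small for some members, from 2 to 54 per library for Slc26a7, 3 to 190 for Tnnt2, 6 to 63 for Slc47a1, 8 to 115 for Slc22a6 and 9 to 211 for Dpp4. The counts of Slc13a3 were 400 to 702. No member had a count of 0 in any library. In whole tissue, fewer cells of a type and less RNA per cell cannot be told apart.

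**Figure D1:**
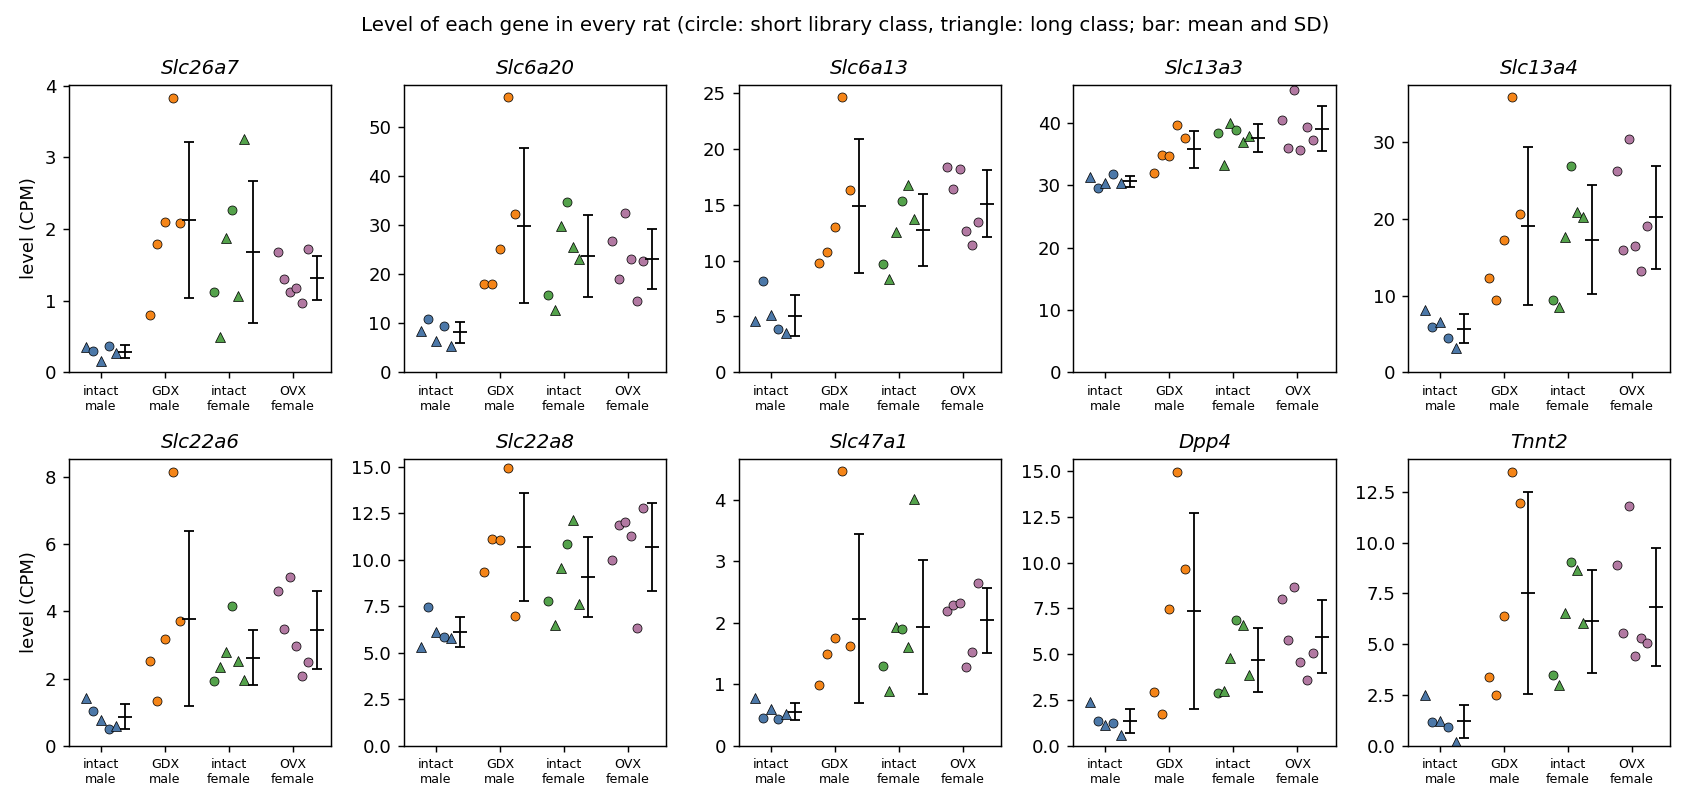
Level of each of the 10 genes in CPM (vertical axes, starting at 0) in every rat of the 4 groups (horizontal axes), with circles for the short and triangles for the long library class and bars for the mean and SD. The mean of intact males is the lowest in each panel, while single rats overlap in some, and GDX male 5 is the highest GDX male in all 10.

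Slc26a7 (ENSRNOG00000006096) is an exchanger of chloride, bicarbonate and other anions. Its level in intact males 1, 2, 3, 5 and 6 was 0.354, 0.296, 0.151, 0.371 and 0.262 CPM. In GDX males 1, 2, 4, 5 and 6 it was 0.796, 1.79, 2.09, 3.83 and 2.09 CPM. Every GDX male was above every intact male, and the intact male values rest on 2 to 6 counts per library. Intact females ranged from 0.484 to 3.25 CPM with a median of 1.5, and OVX females from 0.961 to 1.72 CPM with a median of 1.24. All 12 females were above the 5 intact males. The log2 fold change of GDX over intact males was 2.83 (SE 0.413, n = 5 and 5), or 7.11-fold.

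The amino acid carriers are Slc6a20 and Slc6a13. Slc6a20 (ENSRNOG00000006010), a sodium-dependent carrier of proline and other imino acids, measured 8.1 ± 2.21 CPM in intact males (SD, n = 5) and 29.9 ± 15.8 CPM in GDX males (SD, n = 5). Its highest intact male, rat 2 with 10.8 CPM, was below its lowest GDX male with 18 CPM. GDX male 5 stood at 56.1 CPM and so carried much of the spread of its group. Intact and OVX females measured 23.6 ± 8.37 and 23.1 ± 6.2 CPM (SD, n = 6 each). Slc6a13 (ENSRNOG00000012876), the GAT2 carrier of GABA, betaine and taurine, measured 5.05 ± 1.83 CPM in intact males, 14.9 ± 6.01 CPM in GDX males, 12.7 ± 3.23 CPM in intact females and 15.1 ± 2.99 CPM in OVX females. Its males did not overlap between the groups, the closest being intact male 2 with 8.14 CPM and GDX male 1 with 9.82 CPM. The log2 fold changes in males were 1.88 (SE 0.293) for Slc6a20 and 1.57 (SE 0.26) for Slc6a13.

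The carriers of dicarboxylates and sulfate differed widely in the size of their difference. Slc13a3 (ENSRNOG00000019118), the sodium-dicarboxylate cotransporter NaDC3, had the smallest difference of all members, with 31.4, 29.6, 30.4, 31.8 and 30.4 CPM in intact males 1, 2, 3, 5 and 6 and 32.0, 34.9, 34.7, 39.6 and 37.7 CPM in GDX males 1, 2, 4, 5 and 6. The groups nearly met, at intact male 5 and GDX male 1, without overlapping. Slc13a4 (ENSRNOG00000011184), a sodium-sulfate cotransporter, measured 5.63 ± 1.9 CPM in intact and 19.1 ± 10.3 CPM in GDX males. Its intact males ranged from 3.15 CPM (rat 6) to 8.08 CPM (rat 1), and its GDX males from 9.46 CPM (rat 2) to 35.9 CPM (rat 5). Log2 fold changes in males were 0.22 (SE 0.0603, 1.16-fold) for Slc13a3 and 1.76 (SE 0.321, 3.4-fold) for Slc13a4. In females Slc13a3 stood at 37.6 ± 2.31 CPM (intact) and 39.1 ± 3.63 CPM (OVX), and Slc13a4 at 17.3 ± 7.15 and 20.2 ± 6.71 CPM. In GRCr8 the Slc13a3 locus overlaps Elmo2, which measured 43 ± 4.89 CPM in intact and 42.2 ± 5.32 CPM in GDX males, and that of Slc13a4 overlaps a long noncoding RNA. The strand setting of the deposited counting is not stated, so reads of such neighbours may be included.

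The carriers of organic ions are Slc22a6 (OAT1) and Slc22a8 (OAT3), which take up organic anions, and Slc47a1 (MATE1), which exchanges organic cations for protons. Slc22a6 (ENSRNOG00000018215) was at 1.42, 1.04, 0.755, 0.494 and 0.59 CPM in intact males 1, 2, 3, 5 and 6, and at 2.52, 1.33, 3.17, 8.16 and 3.71 CPM in GDX males 1, 2, 4, 5 and 6. GDX male 2 lay below intact male 1, so its groups overlapped by a single pair. Slc22a8 (ENSRNOG00000018086) measured 6.11 ± 0.816 CPM in intact and 10.7 ± 2.92 CPM in GDX males, and GDX male 6 with 6.97 CPM lay below intact male 2 with 7.47 CPM. Slc47a1 (ENSRNOG00000057404) measured 0.557 ± 0.142 and 2.07 ± 1.37 CPM, without overlap. Its GDX mean leans on rat 5, which stood at 4.47 CPM while the other GDX males were between 0.995 and 1.75 CPM. Log2 fold changes in males were 2.13 (SE 0.438) for Slc22a6, 0.81 (SE 0.17) for Slc22a8 and 1.87 (SE 0.399) for Slc47a1. Intact and OVX female means were 2.62 and 3.44 CPM for Slc22a6, 9.08 and 10.7 CPM for Slc22a8, and 1.94 and 2.04 CPM for Slc47a1. Slc22a25, which overlaps both Slc22a loci, had only 54 counts in all 22 libraries together.

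Dpp4 and Tnnt2 are the members that are not transporters. Dpp4 (ENSRNOG00000030763), a surface peptidase that trims peptide hormones and chemokines, was at 2.41, 1.33, 1.13, 1.24 and 0.59 CPM in intact males 1, 2, 3, 5 and 6. In GDX males 1, 2, 4, 5 and 6 it stood at 2.92, 1.73, 7.49, 15.0 and 9.65 CPM. GDX male 2 lay below intact male 1, and GDX males spread widely, with an SD of 5.35 CPM about a mean of 7.35 CPM. Tnnt2 (ENSRNOG00000033734), the thin filament protein troponin T of the heart, was at 2.48, 1.18, 1.21, 0.927 and 0.197 CPM in intact males and at 3.38, 2.48, 6.41, 13.5 and 11.9 CPM in GDX males, in the same order of rats. The groups of Tnnt2 met without overlap, since intact male 1 and GDX male 2 differ only past the digits shown. Log2 fold changes in males were 2.45 (SE 0.508) for Dpp4 and 2.65 (SE 0.516) for Tnnt2. Dpp4 measured 4.66 ± 1.75 CPM in intact and 5.95 ± 2 CPM in OVX females, and Tnnt2 6.13 ± 2.53 and 6.84 ± 2.9 CPM. The Dpp4 locus also overlaps a long noncoding RNA in GRCr8.

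The first contrast asks how the cord of males differs without testes. All 10 members passed the filter on low counts and all 10 were higher and called in GDX males, at an adjusted p under 0.1 in edgeR over all genes, beside 6.78% of genes called higher (1012 of 14931). In 7 of the 10 every GDX value was above every intact value, beside 3.53% of all genes, the exceptions being Slc22a6, Slc22a8 and Dpp4. Because the members were selected on this contrast, nothing is read from either count. The median log2 fold change was 1.88, with a range of 0.22 to 2.83. Without GDX male 5 the number of genes called fell from 1995 to 1202, and 9 members were called, Slc13a3 no longer being among them. Within the short class alone, with 2 intact males left, 4 members and 440 genes were called, while the log2 fold changes ran from 0.22 for Slc13a3 to 2.83 for Tnnt2.

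**Figure D2:**
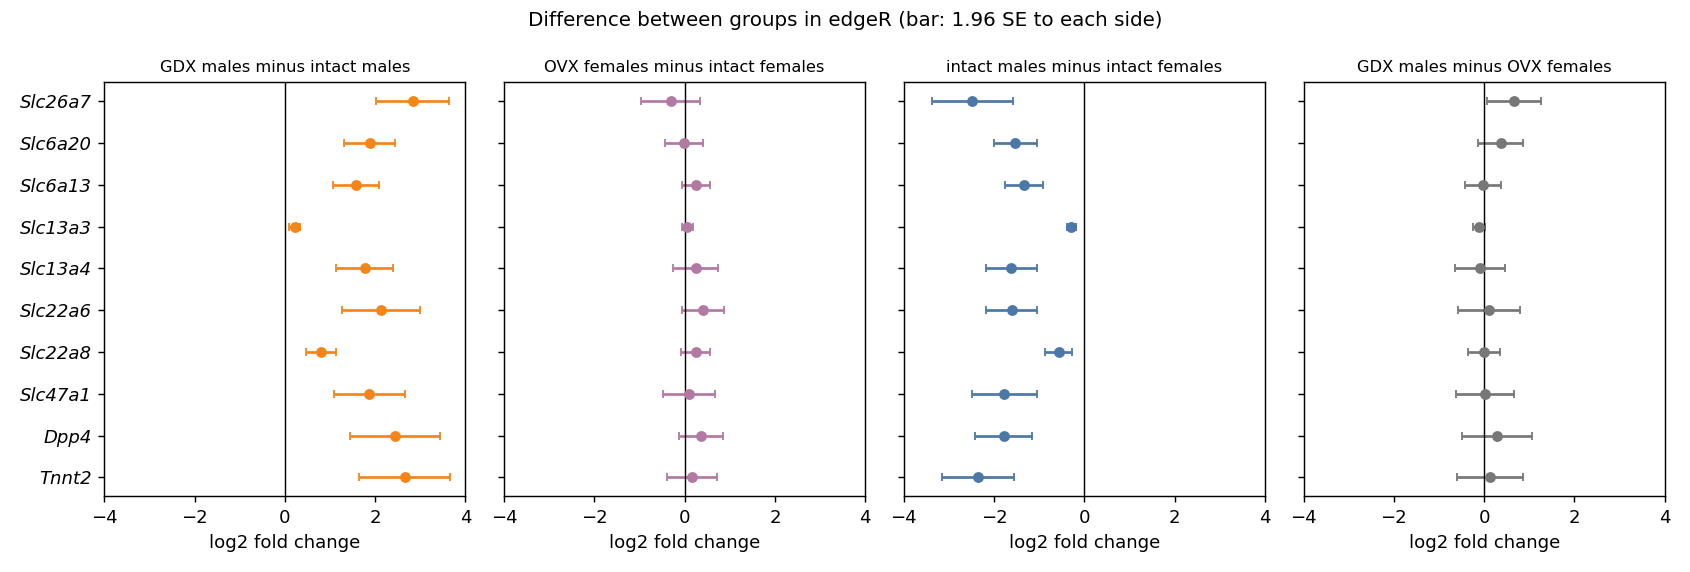
Log2 fold change of each of the 10 genes (horizontal axes) in GDX against intact males, OVX against intact females, intact males against intact females and GDX males against OVX females, with bars for the 95% interval. Points lie right of 0 for GDX against intact males, left of 0 for intact males against intact females, and around 0 in both other panels.

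The second contrast asks the same of females, whose libraries are not in the contrast by which the members were chosen. Earlier results of these data were known at that choice. Removal of the ovaries was followed by no called difference in any of the 10 members in edgeR, beside 0.0335% of all genes called (5 of 14910), and with so few calls a count of 0 is not a result about the members. At an unadjusted p under 0.05 the count was again 0 of 10, where 1516 of all genes passed. DESeq2 and the likelihood ratio test of edgeR also called 0 members, beside 174 of 14481 and 100 of 14910 genes. With shares this small, these counts of 0 are not a result about the members either. The log2 fold changes were positive in 8 and negative in 2, Slc26a7 and Slc6a20, with a median of 0.205 and a range of -0.313 to 0.407. Single rats turned the sign of the smaller ones: Slc6a20 was at 0.12 without intact female 4, Slc47a1 at -0.05 without intact female 2 and Tnnt2 at -0.05 without OVX female 3. Slc26a7 was at -0.03 without intact female 6. Dpp4 was at 0.23 without OVX female 3 and 0.50 without intact female 4, and Slc13a4 at 0.09 and 0.41 in the same fits. Adjusted p ranged from 0.598 to 0.988. Intact and OVX females overlapped for all 10, beside 0.543% of all genes whose groups were apart. The 95% intervals of the log2 fold change, from its SE, show how large a response these libraries leave room for. For Slc26a7 the interval ran from -0.975 to 0.35 around -0.31, for Tnnt2 from -0.382 to 0.719 around 0.17, and for Dpp4 from -0.114 to 0.847 around 0.37. The widest upper limit in this fit, 0.87 on the log2 scale, was that of Slc22a6, and the interval of Slc13a3 was the narrowest, from -0.0608 to 0.177. Within the short class, 0 members were called beside 7 of 15652 genes, again no result about the members. Slc47a1 was then at 0.36 (SE 0.339), Slc22a6 at 0.21 (SE 0.361) and Slc13a3 at 0.01 (SE 0.0891), beside 0.09, 0.41 and 0.06 with all rats. With class as a term Slc47a1 was at 0.37 (SE 0.433). The members' mean log2 CPM was 0.147 higher in OVX females within the short class, against 0.177 with all rats. With all rats the genes called higher in OVX were RT1-S3, Cd93, Kdr and Bst2, named here after their values were seen. The count of 5 was not steady: it was 113 without intact female 1, 38 without OVX female 4, 13 without intact female 3, 11 without OVX female 5, 8 without intact female 5, 2 without intact female 4 or 6, 1 without intact female 2 or OVX female 2, and 0 without OVX female 1 or 6. The number of members called was 0 in each of those fits.

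The difference between the male and the female response is partly made of the contrast that chose the members. It was positive in all 10, with a median of 1.76 on the log2 scale. Slc26a7 (3.15, SE 0.578) and Slc6a20 (1.90, SE 0.4) were called, beside 0.0900% of all genes called higher (14 of 15562), and nothing is read from this. The differences of Tnnt2 and Dpp4 were 2.49 and 2.08 on the same scale, and that of Slc13a3 was 0.17. The number of members called moved with single rats. It was 8 without GDX male 1, 6 without GDX male 2 and 4 without intact female 1, fits in which 275, 111 and 108 genes were called in all, beside 18 with every rat. It was 1 without intact male 1, 2, 5 or 6, GDX male 4, intact female 5 or 6, or OVX female 5 or 6. It was 0 without GDX male 5 or 6, intact female 3 or 4, or OVX female 2 or 4.

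The comparisons between the sexes share the male libraries and are given for the levels alone. Between intact rats all 10 members were lower in males and called, beside 2.56% of genes called lower (383 of 14937), and in 9 every male value was below every female value, beside 1.48% of genes. The exception was Slc22a8, and the median log2 difference was -1.61, from -2.48 for Slc26a7 to -0.288 for Slc13a3. Nothing is read from these counts either, since the same intact males stand in the contrast that chose the members. Fewer genes were called without intact male 1 (352) or 5 (385) than in the full comparison (599). The number of members called was 9 of 10 without intact male 1, 3, 5 or 6. Without intact female 1, 3, 4, 5 or 6 Slc26a7 did not pass the filter on low counts, and of the 9 members tested all 9 were called without female 1 or 6 and 8 without female 3, 4 or 5. With only the short class left, 2 males against 2 females, 0 members were called in edgeR beside 34 of 15130 genes, a share at which 0 is not a result about the members, while their log2 differences stayed near those of all rats, with -2.28 for Slc26a7, -2.55 for Tnnt2 and -0.33 for Slc13a3.

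The sexes were also compared without gonads. Between GDX males and OVX females 0 of the 10 members were called in edgeR, DESeq2 or the likelihood ratio test, beside 0.232% of all genes (35 of 15084), a share at which a count of 0 is not a result about the members. At an unadjusted level 1 of 10, Slc26a7, had an unadjusted p under 0.05, where 1413 of all genes did. The 95% intervals left room for sizeable differences, from 0.0658 to 1.26 for Slc26a7, -0.137 to 0.863 for Slc6a20 and -0.49 to 1.07 for Dpp4. The median log2 difference was 0.0645, from -0.123 to 0.665, with 6 positive and 4 negative, and the groups were apart for 0 members beside 1.35% of all genes. The largest was that of Slc26a7, with 2.12 ± 1.09 CPM in GDX males and 1.32 ± 0.308 CPM in OVX females. GDX male 5 weighed on these values. Without it only Slc26a7 (0.35) and Slc6a20 (0.02) were positive and the other 8 members were negative, from -0.13 for Dpp4 to -0.46 for Slc47a1, with -0.44 for Slc13a4, -0.37 for Slc22a6, -0.28 for Slc6a13 and -0.18 for Tnnt2. Leaving out OVX female 1 lowered the number of genes called to 23, with 0 members among them.

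Library class was compared among the intact rats in a fit that held a term for sex, because it is confounded with gonadectomy. The test called 0 of the 10 members in edgeR or its likelihood ratio test and 0 of the 9 that DESeq2 tested, beside 0.00649% of all genes, which is 1 of 15401, Penk, named after its values were seen. Log2 differences of the long over the short class ran from -0.31 to 0.441 with a median of -0.0694, 3 positive and 7 negative, and adjusted p from 0.812 to 0.997. Single rats moved these values far. Without intact female 4 Tnnt2 was at 0.56, Slc13a4 at 0.50, Dpp4 at 0.37 and Slc26a7 at 0.18, and without intact female 1 Tnnt2 was at -0.22, Slc13a4 at -0.28 and Slc6a20 at -0.60. At an unadjusted p under 0.05 it was 0 of 10 members, where 1185 of all genes passed. No count of 0 in this comparison is a result about the members. By way of example, Slc6a20 averaged 10.1 CPM in the 2 short and 6.74 CPM in the 3 long libraries of intact males, and Dpp4 1.28 and 1.38 CPM. With the 2 short intact males alone, the mean log2 CPM of the members was 1.56 lower than in GDX males, against 1.62 with all 5. With library class as a term in the fit of males, 8 of the 10 members were called, beside 796 of 14931 genes, and nothing is read from this. For the other 2 the log2 fold change was 0.22 (SE 0.083) for Slc13a3 and 0.68 (SE 0.231) for Slc22a8, beside 0.22 (SE 0.0603) and 0.81 (SE 0.17) without that term.

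Rats that were high in 1 member tended to be high in the others. GDX male 5 was the highest of its group in all 10 members, while the lowest was GDX male 1 in 5 members, GDX male 2 in 4 and GDX male 6 in 1. Among intact males, rat 1 was highest in 5 members and rat 6 lowest in 5. Intact female 2 was the lowest of its group in 8 members and OVX female 5 in 7. Over the 45 pairs of members, r of the deviations from the group mean ranged from 0.138 to 0.923 with a median of 0.601 (n = 22 rats). Slc13a4 and Slc6a20 followed the mean of the other 9 members most closely, with r of 0.94 and 0.924, and Slc22a8 least, with 0.453.

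**Figure D3:**
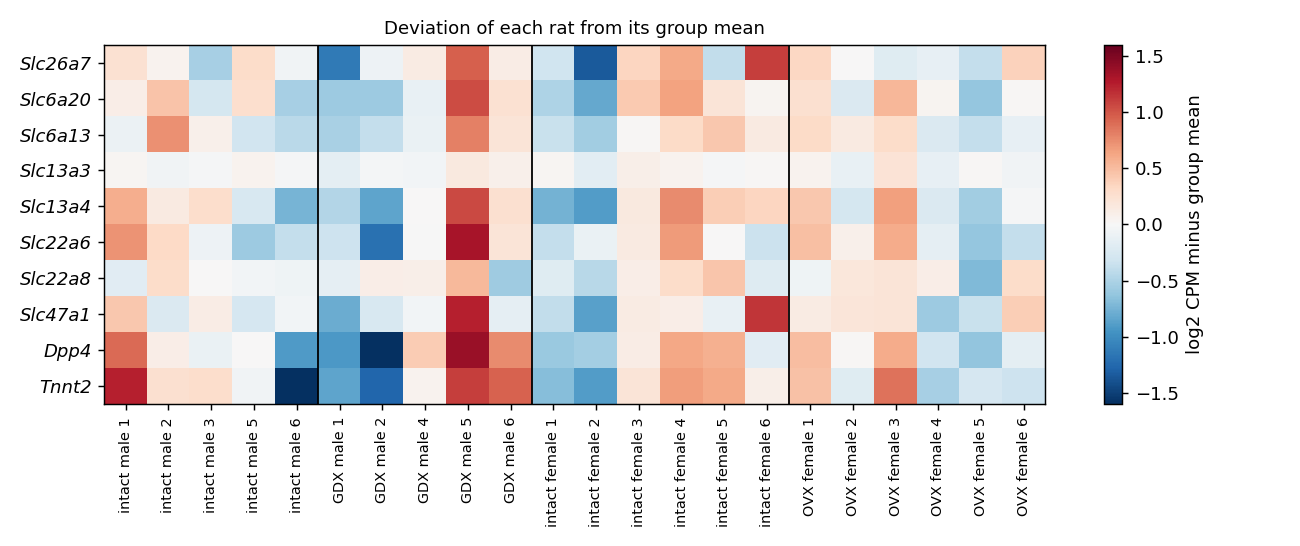
Colour map of the deviation of each rat (columns, by group) from its group mean in log2 CPM, for each of the 10 genes (lines). GDX male 5 is above its group mean for every gene, and Slc13a3 shows the palest line.

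The genes most like the members' mean profile, out of 15552 ranked, were Ptgds, Itgb4, Adamtsl3, Fkbp9, Cdh1, Aldh1a2, Fn1 and Serping1. Their r ran from 0.965 for Ptgds to 0.928 for Serping1 and their Spearman rho from 0.87 to 0.944, over 22 rats and after removal of group means. Without the 2 rats farthest from the median of the profile, r was 0.902 to 0.952. For scale, 4.66% of the ranked genes had r above 0.5. Ptgds makes prostaglandin D2 and is a major product of the leptomeninges, Cdh1 is the cadherin of arachnoid barrier cells, and Aldh1a2 makes retinoic acid in the meninges. Fn1 is fibronectin, Itgb4 a laminin-binding integrin chain and Serping1 the inhibitor of complement C1.

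These genes were picked for their likeness to members chosen in the same libraries, so their group levels in males are a description. All 8 were higher in GDX than in intact males and called, beside 6.78% of all genes, and nothing is read from that count. Ptgds (ENSRNOG00000015550) was at 345 ± 77.2 CPM in intact and 757 ± 372 CPM in GDX males (log2 1.13, SE 0.254), and at 679 ± 197 CPM in intact and 735 ± 183 CPM in OVX females. Cdh1 (ENSRNOG00000020151) was at 2.46 ± 1.89 and 10.3 ± 8.14 CPM in the same male groups (log2 2.07, SE 0.523), and Itgb4 (ENSRNOG00000005580) at 20.8 ± 6.97 and 55.5 ± 31.7 CPM (log2 1.42, SE 0.325). In females none of the 8 was called in edgeR, beside 0.0335% of all genes, with adjusted p of 0.432 (Fn1) to 0.969 (Adamtsl3).

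The list of other leptomeningeal genes moved with the members in males. All 19 of its genes that passed the filter were called higher in GDX males, beside 6.78% of all genes. Their median log2 fold change was 1.13 beside 0.0021 for all genes. Both results were already known when the list was used. In females 0 of 19 were called in edgeR, beside 0.0335% of all genes, so this 0 is not a result about them. There 14 were positive, with a median of 0.121 beside 0.00255. Between intact males and intact females all 19 were lower in males and 14 of them were called, beside 2.56% of all genes. The median of the list was -1.09. Its summed level was 651.1, 454.4, 487.3, 416 and 373.1 CPM in intact males 1, 2, 3, 5 and 6 and 630.8, 675.7, 1001, 1762 and 1194 CPM in GDX males 1, 2, 4, 5 and 6. GDX male 5 was again the highest and intact male 6 the lowest, and GDX male 1 lay below intact male 1. In intact females 1 to 6 the sum was 629, 580.8, 1022, 1311, 1073 and 1020 CPM, and in OVX females 1 to 6 it was 1218, 921.6, 1391, 873.8, 764.3 and 1023 CPM. Ptgds had the highest CPM of the list, none of the 21 genes was at 0 in all libraries, and Ogn was at 0 in 5. Igf2, a growth factor made by the leptomeninges, was at 27.4 ± 13.6 CPM in intact and 82.8 ± 28.6 CPM in GDX males.

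The mean log2 CPM of the list and that of the members deviated together, with r of 0.955 and rho of 0.955 over the 22 rats, and r of 0.948 without 2 rats. In males the list mean was 1.84 ± 0.304 (intact) and 2.97 ± 0.479 (GDX), and in females 2.84 ± 0.463 (intact) and 2.97 ± 0.258 (OVX). Members averaged 1.4 ± 0.336, 3.02 ± 0.651, 2.82 ± 0.437 and 3 ± 0.314 in the same order. Relative to the list, the male difference was larger in 8 members, led by Tnnt2 (1.38 on the log2 scale), Slc26a7 (1.17) and Dpp4 (0.951), and smaller in Slc13a3 (-0.916) and Slc22a8 (-0.371). With the list mean as a term in the edgeR fit of males, 1 gene of 14931 was called and 0 of the 10 members, so this count says nothing particular about the members. The log2 differences that remained ran from -0.35 for Dpp4 to 1.20 for Slc26a7 (SE 0.542). Since the lowest list mean in GDX males, 2.373 in rat 1, was above the highest in intact males, 2.165 in rat 1, the list level and the surgery cannot be told apart in males. How much leptomeningeal tissue each dissected sample held was not measured, and its part in the result was not tested.

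**Figure D4:**
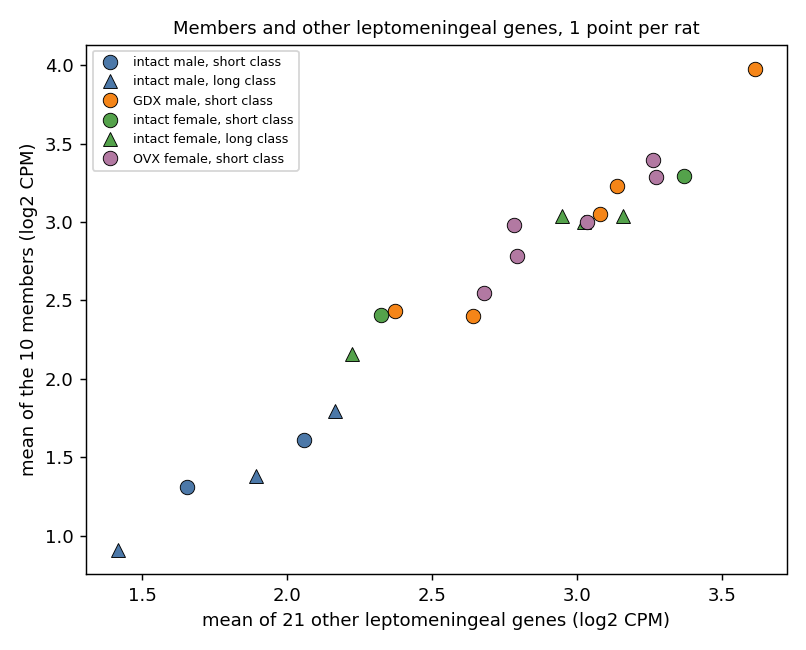
Mean log2 CPM of the 10 members (vertical axis) against the mean of 21 other leptomeningeal genes (horizontal axis), 1 point per rat, coloured by group. Intact males lie at the lower left, at list means of 1.418 to 2.165, and the other 3 groups share the range from 2.224 to 3.614.

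Lists of other barrier cells differed in pattern. The mean of 7 endothelial genes was higher by 0.629 on the log2 scale in GDX males (exact permutation test, two-sided p = 0.00794, adjusted p = 0.0794 over 40 tests of 20 lists) and by 0.541 in OVX females (exact p = 0.0152, adjusted p = 0.0795). For 5 against 5 rats 0.00794 is the smallest p this test can give. All 7 endothelial genes were called higher in GDX males, beside 6.78% of all genes. Kdr alone was called in OVX females, beside 0.0335% of all genes. The r of the list with the members' profile was -0.0948 (rho -0.106, -0.266 without 2 rats), so the endothelial genes shared the male difference but not the variation within groups. Between intact males and intact females 1 of 7 was called lower in males, beside 2.56% of all genes. The median log2 difference was -0.142. Flt1, a receptor for VEGF, was at 38.1 ± 7.68 CPM in intact and 55.4 ± 12.4 CPM in GDX males, and at 43.5 ± 13.1 CPM in intact and 63 ± 13.3 CPM in OVX females. Cdh5, a junction cadherin, differed from most of the list, with a log2 difference of -1.13 between intact males and intact females. Of 7 mural cell genes tested, 4 were called higher in GDX males in edgeR, beside 6.78% of all genes. In OVX females 0 were called, beside 0.0335% of all genes, so this 0 is not a result about the list. The mean of the mural list differed by 0.398 in GDX males (exact p = 0.0159, adjusted p = 0.0795) and 0.354 in OVX females (exact p = 0.0346, adjusted p = 0.138). The 20 other barrier transporters moved less, by 0.143 in GDX males (exact p = 0.0159, adjusted p = 0.0795) and 0.0922 in OVX females (exact p = 0.143, adjusted p = 0.336). Of these 20, 4 were called higher in GDX males and 1 lower in edgeR, beside 6.78% and 6.58% of all genes. The count called lower is near that share, and nothing is read from it. Among those called higher was Slc2a1, the glucose carrier GLUT1 (log2 0.26, adjusted p = 0.0169). The gene called lower was Abcc5 (log2 -0.28, adjusted p = 0.0106). Within the short class the male and female differences of the list means were 0.473 and 0.722 (endothelium), 0.159 and 0.61 (mural cells) and 0.0743 and 0.201 (barrier transporters), while those of the other leptomeningeal genes were 1.11 and 0.123.

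Choroid plexus, which carries several of the same transporters, had few counts for its defining markers. Otx2 was at 0 in all 22 libraries and Ttr at 0 in 15, with a highest count of 3. The mean of its 8 genes differed by 0.339 in GDX males (exact p = 0.0794, adjusted p = 0.244) and 0.148 in OVX females (exact p = 0.323, adjusted p = 0.481), or 0.335 and 0.347 within the short class, and its r with the members' profile was 0.536 (rho 0.563, 0.468 without 2 rats). Slc4a5, which had the highest CPM of the list, was at 12.7 ± 2.13 CPM in intact and 13.6 ± 1.56 CPM in GDX males. Kcnj13, a potassium channel, was called higher in GDX males, with 0.471 ± 0.249 and 1.45 ± 0.919 CPM (adjusted p = 0.0391). The 5 ependymal genes tested differed by 0.106 in GDX males (exact p = 0.762) and 0.188 in OVX females (exact p = 0.0693), both with adjusted p above the threshold, at 0.802 and 0.231. Within the short class the male ependymal difference was -0.172.

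Nerve root and muscle were examined because they adhere to the cord. The mean of 6 Schwann cell and root genes differed by 0.866 in GDX males (exact p = 0.0873, adjusted p = 0.249) and -0.131 in OVX females (exact p = 0.489, adjusted p = 0.674), or 1.36 and 0.0171 within the short class. Of 5 of its genes tested, 2 were called higher in GDX males, beside 6.78% of all genes. In intact males 3 were called lower than in intact females, beside 2.56% of all genes. The median log2 differences were 1.07 and -1.50. Prx, a protein of myelinating Schwann cells, was called higher in GDX males (adjusted p = 0.0955), at 4.73 ± 3.25 CPM in intact and 9.84 ± 3.89 CPM in GDX males, beside 13.2 ± 4.52 CPM in intact and 13.9 ± 3.08 CPM in OVX females. Intact males were thus also lowest for this root marker, and the r of the list with the members' profile was 0.473 (rho 0.573, 0.488 without 2 rats). Its part in the result was not tested. The mean of 9 striated muscle genes, of interest beside Tnnt2, differed by 0.122 in GDX males (exact p = 0.683, adjusted p = 0.794) and 0.617 in OVX females (exact p = 0.325, adjusted p = 0.481), or -0.348 and 0.2 within the short class. Actc1 and Myl2, of heart muscle, were at 0 in 13 and 12 libraries, and Mybpc3 in 3. Myh6 of the same list was at 1.99 ± 0.595 CPM in intact and 1.72 ± 0.891 CPM in GDX males. In intact and OVX females it was at 1.72 ± 0.537 and 1.5 ± 0.518 CPM.

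Lists of the cord itself differed less than the members in GDX males (1.62), but in females the motor neuron and dorsal horn lists differed more than the members (0.177). Astrocyte genes differed by 0.125 in GDX males (exact p = 0.00794) and 0.0926 in OVX females (exact p = 0.00649), each with adjusted p = 0.0794. Of the 6 astrocyte genes, 2 were called higher in GDX males, beside 6.78% of all genes, and 4 of 6 were positive. Gfap, the astrocyte filament, had the highest CPM of the list and rose from 3060 ± 188 to 3980 ± 319 CPM in males, while the glutamate carrier Slc1a2 was at 404 ± 25.8 and 383 ± 11.9 CPM (adjusted p = 0.365). Oligodendrocyte genes differed by 0.0595 (exact p = 0.143, adjusted p = 0.336) and 0.0286 (exact p = 0.279, adjusted p = 0.446). Motor neuron genes, which mark the ventral horn, differed by -0.194 in GDX males (exact p = 0.206, adjusted p = 0.408) and -0.406 in OVX females (exact p = 0.013, adjusted p = 0.0795). Within the short class the motor neuron difference was 0.0275 in males, the other sign, and -0.135 in females. Dorsal horn genes differed by 0.037 (exact p = 0.833, adjusted p = 0.854) and 0.288 (exact p = 0.251, adjusted p = 0.437), or -0.00805 and -0.159 within the short class. Of the Hox genes that mark cervical and lumbar levels, Hoxa5 (cervical) and Hoxa10 (lumbar) were at 0 in all libraries, and Hoxd10 (lumbar) in 21. The remaining cervical genes were present, with group means of 9.01 to 10.6 CPM for Hoxb5 and 7.02 to 8.84 CPM for Hoxc5. Hoxc10, the remaining lumbar gene, was at 0 in 4 libraries and averaged 0.203 CPM. The cervical list differed by -0.167 and -0.0567 (exact p = 0.0556 and 0.262, adjusted p = 0.202 and 0.437) and the lumbar list by -0.0938 and -0.0546 (exact p = 0.69 and 0.695, adjusted p = 0.794 for each), in GDX males and OVX females. Within the short class the cervical differences were -0.302 and -0.103 and the lumbar ones 0.212 and 0.0695.

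**Figure D5:**
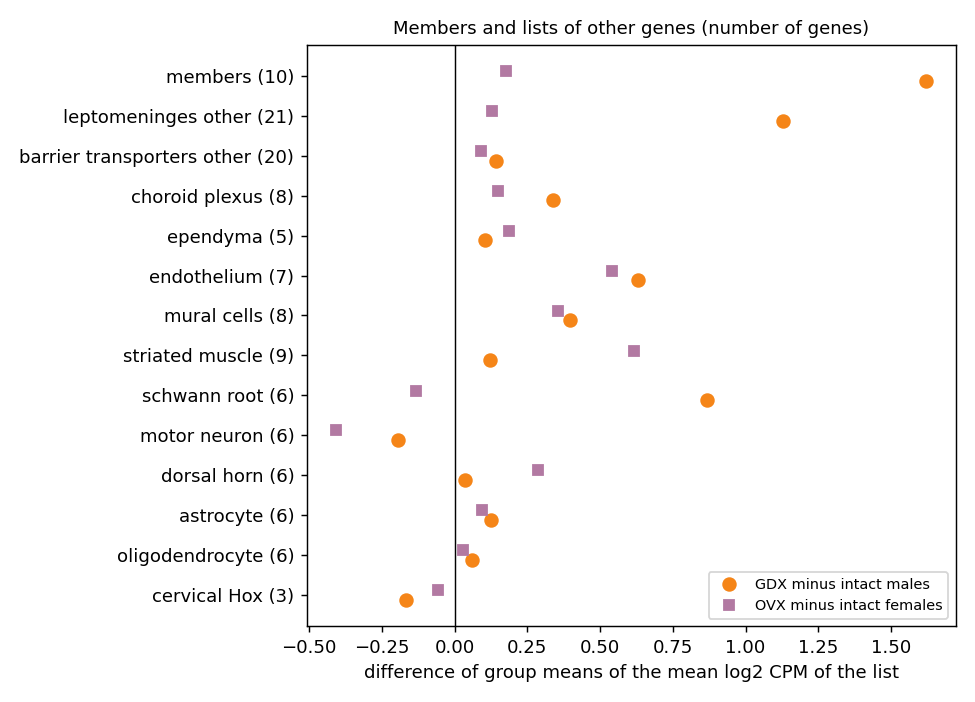
Difference of group means of the mean log2 CPM (horizontal axis) of the 10 members and of lists of other genes (vertical axis, number of genes in brackets), for GDX against intact males and OVX against intact females. The lists of relatives and of lumbar Hox genes are not shown. The members (1.62) and the other leptomeningeal genes (1.13) lie farthest right in males, while their female values are 0.177 and 0.128.

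Relatives of the members were examined as a group. Of 56 genes of the same families in the table, 32 passed the filter in males. Their median log2 fold change was -0.0452, beside 0.0021 for all genes. In GDX males 1 was called higher and 3 lower, beside 6.78% and 6.58% of all genes. In females 0 of 35 were called in edgeR, beside 0.0335% of all genes, with a median of 0.0103. These counts are near the shares over all genes, and nothing is read from them. Slc6a12, the betaine and GABA carrier BGT1, rose in GDX males from 1.77 ± 1.06 to 4.49 ± 1.46 CPM (log2 1.35, SE 0.319, adjusted p = 0.019) and was at 4.42 ± 0.756 CPM in intact and 5.73 ± 1.61 CPM in OVX females. Those called lower were Slc6a5, the glycine carrier of inhibitory neurons (-0.37), Slc6a17 (-0.44) and Dpp6, a subunit of neuronal potassium channels (-0.21). Between intact males and intact females 33 relatives were tested. Slc6a12, Slc6a11, Slc22a18 and Tnnc2 were called lower in males, 4 of 33 beside 2.56% of all genes. Slc6a5, Slc6a6 and Slc6a17 were called higher, 3 of 33 beside 1.45%. Unlike the counts after gonadectomy, these are above the shares over all genes.

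By family, no list mean passed the adjusted threshold. In GDX males the relatives differed by 0.0295 (Slc26, exact p = 0.762), 0.0886 (Slc6, exact p = 0.103), -0.000208 (Slc13, exact p = 1), 0.159 (Slc22 and Slc47, exact p = 0.19), 0.0317 (Dpp, exact p = 0.73) and 0.253 (troponins, exact p = 0.444), with adjusted p of 0.275 or more. The female differences were 0.0653 (exact p = 0.214), 0.0156 (exact p = 0.654), -0.0741 (exact p = 0.026), 0.126 (exact p = 0.177), -0.0283 (exact p = 0.537) and 0.56 (exact p = 0.26) in the same order, with adjusted p of 0.116 or more. Within the short class the sign turned in males for Slc13 (0.0373), Dpp (-0.107) and troponins (-0.0448), and in females for Slc6 (-0.00964), Slc22 and Slc47 (-0.0277) and Dpp (0.0221). Several close relatives were at or near 0, among them Slc6a14 and Slc13a1 with no count in any library, and Slc13a2, Slc6a3 and Slc6a18 at 0 in 21 of 22.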

How the data were processed

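The authors deposited 1 table of raw gene counts for 22 libraries, made from reads trimmed with Trimmomatic, aligned to Rnor_6.0 and counted with featureCounts of Subread. The study's methods name Hisat2 and a SMARTer stranded total RNA kit, while the labels name TopHat2 2.0.13 and Truseq protocols. The handling of strand and of multimapping reads is not stated.

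Counts were fitted in edgeR 4.0.16 (R 4.3.3, limma 3.58.1) with filterByExpr, TMM factors and quasi-likelihood tests. Benjamini-Hochberg adjustment ran over all genes tested, and genes were called at adjusted p under 0.1. CPM used TMM-scaled library sizes, and log2 CPM a prior count of 2. Comparisons were GDX against intact males, OVX against intact females, the sexes with and without gonads, the difference between the responses, and library class within intact rats. Replicates were checked for duplicates and none were found. The pipeline was tested on simulated data.

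Means of 20 lists of other genes (21 other leptomeningeal genes, barrier transporters, relatives by family, cell type and Hox markers) were compared by exact permutation tests, two-sided, with Benjamini-Hochberg adjustment over 40 tests. Members and lists were chosen with earlier results of these data known. Named genes are the members, up to 3 tested genes of each list with the highest CPM, relatives called in any comparison and the 8 genes most like the members' profile, while others are named where a count is small or a marker is at 0. Nov and Prrxl1 were read as Ccn3 and Drgx. Ranbp3l, Slco1a5, Slc22a4, Foxj1, Pecam1, Myh1 and Myh4 were not found in the table.

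Alternatives were RLE factors, DESeq2 1.42.0, the likelihood ratio test, other filters, 1 fit of all rats, library class or the leptomeningeal list as a term, short libraries alone, rat number as a block, each rat left out, adjusted p under 0.05, a prior count of 0.5 and no factors. Promoters and locus overlaps come from RefSeq for build GRCr8, in which the deposited Slc6a20 is named Slc6a20a.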

Additional observations from a re-analysis of the deposited data

Results flagged for a closer look

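In all, 13 values stood apart from the rest of their group by Dixon's criterion, out of 124 groups of values examined, and chance alone sets about 1 in 20 groups apart. Among the members only Slc47a1 was concerned. GDX male 5 stood at 4.468 CPM while the other GDX males were between 0.995 and 1.75 CPM, and intact female 6 at 4.01 CPM while the other intact females were between 0.899 and 1.93 CPM.

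The remaining 11 values are means of gene lists on the log2 CPM scale. Barrier transporters were low in GDX male 6 (4.522). Relatives in the Slc26 family were high in intact male 3 (0.7722), those in the Slc6 family in intact male 2 (2.432) and those in the Slc13 family in intact male 3 (-0.9744), while the Slc13 relatives were low in intact female 6 (-1.179). Ependymal genes were high in intact female 1 (1.835). Striated muscle genes were high in intact male 2 (0.8386) and in GDX male 4 (0.3296). Astrocyte genes were low in intact male 1 (8.498) and intact female 1 (8.432), and oligodendrocyte genes in OVX female 4 (10.61). No list mean of the leptomeningeal genes stood apart in any group.

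For Slc26a7 the log2 fold change after gonadectomy was 3.15 higher in males than in females, and for Slc6a20 it was 1.90 higher. Both members were called in edgeR, but 0 members were called at adjusted p under 0.05 or with short libraries alone. The count was also 0 when GDX male 5, among other single rats, was left out. The contrast holds the male libraries by which the members were chosen. These differences are therefore descriptions, and nothing is read from the calls.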

How the results depend on the processing

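In females 0 members were called under any alternative or without any rat, and 0 between GDX and OVX rats or between library classes. In the main fits 0.0335%, 0.232% and 0.00649% of all genes were called there. These counts of 0 are therefore not a result about the members. In males the members' log2 fold changes kept their sign under every alternative but the leptomeningeal term, which reversed Dpp4, and Slc26a7 was not tested at the 1 CPM filter. Counts per library went down to 2 for Slc26a7, 3 for Tnnt2 and 6 for Slc47a1.

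Rats with the same number were not paired: correlations of their deviations were -0.0769 to 0.00113 (4 pairs, GDX) and -0.058 to 0.0309 (6 pairs, OVX). With rat number as a block, 1274 genes and 10 members were called in GDX males, and 0 genes and 0 members in OVX females.

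For GDX males (1995 genes, 10 members), library class as a term gave 796 genes, short libraries alone 440 genes and 4 members, the leptomeningeal term 1 gene and 0 members, and adjusted p under 0.05 gave 1264 genes. For OVX females (5 genes) DESeq2 gave 174, the likelihood ratio test 100, no filter 11, all rats in 1 fit 9, class as a term 3, the leptomeningeal term 14 and adjusted p under 0.05 gave 1. Between intact males and females (599 genes, 10 members), short libraries alone gave 34 genes and 0 members, and adjusted p under 0.05 gave 333 genes. Between GDX males and OVX females (35 genes), DESeq2 gave 136, the likelihood ratio test 91 and all rats in 1 fit 61. For the difference between the responses (18 genes, 2 members), DESeq2 gave 246 genes and 7 members, the likelihood ratio test 184 and 8, no filter 33 genes, a filter at 1 CPM 6 genes and 1 member, class as a term 6 and 1, short libraries alone 5 and 0, and adjusted p under 0.05 gave 2 and 0. Between library classes (1 gene), DESeq2 gave 52, the likelihood ratio test 62, no filter 210 and adjusted p under 0.05 gave 0. Smaller groups are part of the short-library fits, and the cause of the other shifts was not tested.

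The leptomeningeal term turned the sign in GDX males for Dpp4 (-0.35, SE 0.471), Ptgds (-0.34), Igfbp2 (-0.0197), Kcnj13 (-0.49), Prx (-0.36), Slc18a3 (0.008833), Itgb4 (-0.555), Adamtsl3 (-0.51), Cdh1 (-0.94), Aldh1a2 (-0.20) and Serping1 (-0.42). Ptgds, Igfbp2, Cdh1 and Aldh1a2 are themselves in the list whose mean is the term. Since list level and surgery cannot be told apart in males, nothing is read from these signs. At a prior count of 0.5 the mean of the Slc6 relatives differed by 0.19 in GDX males.

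Leaving out each rat in turn gave these lowest and highest counts. GDX males had 1202 to 2446 genes and 9 to 10 members, OVX females 0 to 113 genes and 0 to 0 members. Intact males against intact females had 352 to 777 genes and 8 to 10 members, GDX males against OVX females 23 to 44 genes and 0 to 0 members. The difference between the responses had 1 to 275 genes and 0 to 8 members, and library classes 0 to 1 gene and 0 to 0 members. Class as a term and short libraries alone were not run for GDX males against OVX females, which are all short, nor for library class itself.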
